A study of Mus musculus with 10 samples.

Results

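The 10 genes described here are immediate early genes: Fos, Fosb, Jun, Junb, Jund, Egr1, Atf3, Ier2, Ier3 and Zfp36. They were taken by name from the gene rows of single-cell tables of the mouse kidney cortex, which hold 28808 gene symbols in all, and each of the 10 was found. The tissue came from normal kidneys (the control) or from injured kidneys at day 1, 2, 4, 7, 11 or 14, and the mice were 4 weeks old. The labels give no kind of injury, strain, sex or genotype. Single-cell suspensions were sequenced by Drop-seq, which captures the RNA of each cell on a barcoded bead and reads its 3′ end, as 10 libraries: 2 each for days 7, 11 and 14, and a single one for the control and for days 1, 2 and 4. The labels do not say whether the 2 libraries of a day came from different animals, so the p-values measure the spread between libraries, which may be technical. No test was made for days 1, 2 and 4, and the single control was assumed to vary like the replicated days.

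Immediate early genes are transcribed within minutes of a stimulus, without the need for new protein, from promoters that preexisting factors such as SRF and CREB occupy. FOS and JUN proteins pair to form the AP-1 transcription factor. Egr1 encodes a zinc finger transcription factor and Atf3 a stress-responsive factor of the ATF/CREB family, while Zfp36 encodes tristetraprolin, which binds AU-rich elements and speeds the decay of inflammatory transcripts. In the kidney these genes are known to respond early to ischemia and toxins, and they also respond to the enzymes and warmth used to dissociate tissue, so the heat shock genes were measured beside them.

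The promoters of Fos, Junb and Zfp36 are shown as examples of the genes that rose in the tubular sum on both days 7 and 11. Fosb, Jun, Atf3 and Ier2 also rose on both days. Fos and Junb held the same pair of motifs in these windows and Zfp36 another. The windows run from 250 bases before to 50 bases after the start site, are taken from RefSeq (build GRCm38.p6) and are written 5′ to 3′ on the strand of the gene. They lie at chr12:85473640-85473939 (Fos, plus strand), chr8:84978699-84978998 (Junb, minus strand) and chr7:28379179-28379478 (Zfp36, minus strand). Capitals mark matches to the motifs searched on both strands. These are the core of the CREB and ATF element (TGACG), the TATA box and, in Zfp36, the CArG box that SRF binds.
Fos: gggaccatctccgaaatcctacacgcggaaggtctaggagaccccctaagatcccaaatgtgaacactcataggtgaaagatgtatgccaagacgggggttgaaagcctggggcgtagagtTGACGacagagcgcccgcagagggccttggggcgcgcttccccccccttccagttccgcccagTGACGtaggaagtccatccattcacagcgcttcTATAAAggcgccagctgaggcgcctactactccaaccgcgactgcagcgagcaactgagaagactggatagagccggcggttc
Junb: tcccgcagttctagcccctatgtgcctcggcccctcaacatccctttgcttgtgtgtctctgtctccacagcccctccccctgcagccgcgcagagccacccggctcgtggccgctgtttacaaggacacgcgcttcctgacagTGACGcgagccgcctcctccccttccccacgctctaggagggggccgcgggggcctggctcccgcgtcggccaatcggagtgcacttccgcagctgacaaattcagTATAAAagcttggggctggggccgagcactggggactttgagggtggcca
Zfp36: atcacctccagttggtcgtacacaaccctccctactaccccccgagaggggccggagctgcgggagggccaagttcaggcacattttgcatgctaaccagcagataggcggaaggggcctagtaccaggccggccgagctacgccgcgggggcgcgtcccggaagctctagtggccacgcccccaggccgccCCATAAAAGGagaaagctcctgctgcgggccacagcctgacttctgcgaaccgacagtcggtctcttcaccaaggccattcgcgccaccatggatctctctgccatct
In GRCm38 (GENCODE M21) the gene models of the other members of the FOS and JUN families lie at chr7:19302696-19310051 (Fosb, minus strand), chr4:95049034-95052222 (Jun, minus strand) and chr8:70698949-70700616 (Jund, plus strand). Atf3 lies at chr1:191170296-191218039 (minus strand), Ier2 at chr8:84661331-84662852 (minus strand) and Ier3 at chr17:35821684-35822923 (plus strand). Of the 10 genes, 8 had a window in the table, all but Egr1 and Ier2. TGACG was found on either strand in 4 of the 8, against 20.8% of the 32851 windows of all genes, and lay 129 and 66 bases before the start site in Fos, 106 in Junb, 60 in Fosb and 7 in Atf3. TATAAA was found in 2 of the 8 genes, 33 bases before the start site in Fos and at the start site in Junb, against 13.6% of all windows. The GENCODE M21 model of Junb starts at chr8:84978718, downstream of the RefSeq start site used here. Its TATAAA match therefore lies upstream of the GENCODE start. A CArG box was found in 1 of the 8 (Zfp36, 58 bases before the start site), against 1.63%. The GENCODE M21 model of Zfp36 starts at chr7:28380253, upstream of the RefSeq start site used here. Its CArG box therefore lies inside the GENCODE model. The AP-1 site TGANTCA was found in 0 of the 8, against 7.81%. No match overlapped another match, other than the CArG box with itself on the opposite strand. These matches describe letters, not bound sites.

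After filtering, 50151 cells were used, and 92.9% of them were assigned to a class by counting detected marker genes (a gate). Cells gated as proximal, thick limb, distal convoluted, principal or intercalated, with tubular cells of no assigned segment, were summed as tubular. In each gate its own markers were the most abundant ones, but cells gated as intercalated also held principal markers, and those gated as distal convoluted held thick limb markers. The libraries held 7091848 to 31632205 UMIs, and the median cell had 1254 to 2664. The median mitochondrial share of a cell was 23.5% in the control, 3.6% and 4.29% in the day 7 libraries, 15.2% and 11.8% in those of day 11, and 16.1% and 18.6% in those of day 14. The summed level of 13 heat shock genes in cells gated as proximal was 20076 CPM (counts scaled to a common total) in the control. It was 7124 and 7170 for day 7, 12730 and 13335 for day 11, and 10622 and 8936 for day 14. Such a sum is weighted to its abundant genes. In tubular cells the average log2 CPM was 10.1 for Hsp90aa1, 9.33 for Hspd1 and 9.12 for Hspe1. It was 6.37 for Hspa1a and 5.21 for Hspa1b, so the sum says little of these 2 genes and is no direct measure of dissociation stress. Libraries shared 62 of 52735 cell barcodes.

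Macrophages, endothelial cells and principal cells held the highest levels of most of the genes, and proximal cells and T and NK cells were among the lowest. Levels are CPM of the summed UMIs of a class in a library, scaled by the trimmed mean of M values (TMM) over all sums. Fos had its highest median in macrophages, at 2536 CPM (range over 10 libraries 1276 to 3851). It was followed by endothelial cells at 1846 (1235 to 4401), principal cells at 1550 (945 to 2762), intercalated cells at 1181 (723 to 2112), stromal cells at 1036 (440 to 1947 over 7 libraries) and thick limb cells at 879 (537 to 1989). Podocytes were at 815 (443 to 2153 over 7 libraries) and distal convoluted cells at 784 (361 to 1163 over 9). Proximal cells had 409 CPM (161 to 756), and T and NK cells had the lowest median at 226 (168 to 251 over 4 libraries). Neighbouring classes in this order overlapped in range, and the T and NK range lay inside the proximal one. These ranges cover unlike libraries, as T and NK cells gave sums only on days 2, 4 and 7. In each of those libraries proximal Fos lay above the whole T and NK range. The lowest proximal value was that of the control. No class in these data is known to lack these genes, so no class measures RNA free in the suspension. The T and NK median was also the lowest of the named classes for Fosb, Jun, Egr1 and Atf3. It was not the lowest for Junb (407 CPM, against 269 in proximal cells) or Zfp36 (156, against 78.2 in podocytes). Nor was it the lowest for Ier2, Ier3 or Jund.

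**Figure D1:**
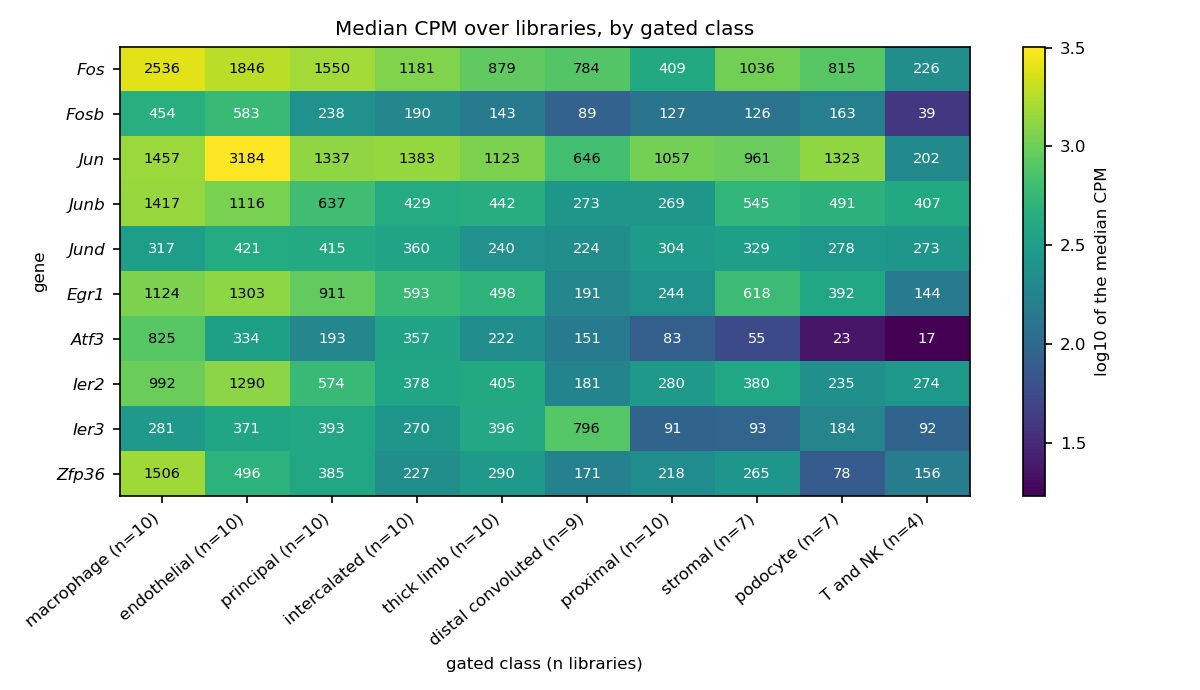
Median level of each of the 10 genes (rows) in each gated class (columns) over the libraries with at least 30 cells of the class, in CPM, with colour on a log10 scale. Fos was at 2536 CPM in macrophages and 226 in T and NK cells, and Ier3 was highest in the distal convoluted tubule, at 796.

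The other 9 genes followed several orders. Jun was highest in endothelial cells, at a median of 3184 CPM (2214 to 4743), and its range there overlapped that of macrophages (829 to 2873) but not that of proximal cells (580 to 1663). Zfp36 and Atf3 were highest in macrophages, at 1506 CPM (750 to 2720) and 825 CPM (114 to 2766). Egr1, Fosb and Ier2 were highest in endothelial cells, at 1303, 583 and 1290 CPM. Junb was highest in macrophages, at 1417 CPM. Ier3, which encodes an early response protein that modulates survival signals, had a different order: distal convoluted cells were highest at 796 CPM (392 to 1110), and proximal cells were lowest at 91.1 (28.3 to 175). Jund varied least between classes, with medians from 224 CPM in distal convoluted to 421 in endothelial cells among the gates with a named class.

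Class differences were tested within libraries, because the classes of a library share its suspension, dissociation and run. Endothelial cells were higher than tubular cells for all 10 genes, where 28.2% of 11261 genes were higher and 35.3% lower (63.5% in all). The largest difference was in Junb (log2 difference 2.03 ± 0.19 SE, adjusted p = 1.51e-07, edgeR quasi-likelihood F test, Benjamini-Hochberg), and the smallest in Jund (0.66 ± 0.11, adjusted p = 0.0001). Each gene other than Atf3 was higher in all 10 libraries. The Poisson intervals of both classes overlapped for Ier3 in the libraries of days 1, 2, 4 and 7, and for Jund on day 2 and in the second day 14 library. Atf3 was higher in 6 of 10, at 0.48 times the tubular level on day 1 and 7.77 times in the control. The median of the 10 genes was 1.67 and that of all genes tested was -0.09.

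Macrophages were higher than tubular cells for 9 of the 10 genes, where 23.3% of 11372 genes were higher and 32.7% lower (56.0% in all). Zfp36 differed most (2.71 ± 0.25 SE, adjusted p = 2.63e-08, edgeR), followed by Atf3 (2.47 ± 0.36) and Junb (2.07 ± 0.25). Jund was the exception (0.37 ± 0.20, adjusted p = 0.126). The calls of Jun (0.57 ± 0.19) and Ier3 (0.49 ± 0.18) were the weakest. With DESeq2's size factors Jun was 0.32 (adjusted p = 0.173) and Ier3 was 0.22 (adjusted p = 0.296). With the stricter gate, in which no other class may reach 2 markers, Jun was 0.13 (adjusted p = 0.544) and Ier3 was 0.04 (adjusted p = 0.882). Ier3 also lost its call without the second day 7 library (0.47, adjusted p = 0.0577), either day 11 library (adjusted p = 0.0724 and 0.0762) or either day 14 library (adjusted p = 0.0681 and 0.115).

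Within the nephron, thick limb cells were higher than proximal cells for 8 of the 10 genes, where 29.8% of 10791 genes were higher and 31.2% lower (61.0% in all). Ier3 differed most, at a log2 difference of 2.32 ± 0.21 SE (adjusted p = 5.54e-07, edgeR), and was higher in all 10 libraries by 2.61 to 10.2 times. Atf3 (1.66 ± 0.18) and Fos (1.37 ± 0.12) followed. Fosb (0.29 ± 0.13, adjusted p = 0.0772) and Jund (-0.24 ± 0.14, adjusted p = 0.153) did not pass. Fosb passed without the second day 14 library (0.41, adjusted p = 0.00252). It also passed with scaling by total counts alone (0.48, adjusted p = 0.0105) and with a mitochondrial share up to 25% (0.33, adjusted p = 0.02). Jun (0.34 ± 0.10) was lost without a filter on low counts (0.22, adjusted p = 0.153). Of the 13 heat shock genes, 2 were higher and 7 lower in thick limb cells, and their part was not tested.

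**Figure D2:**
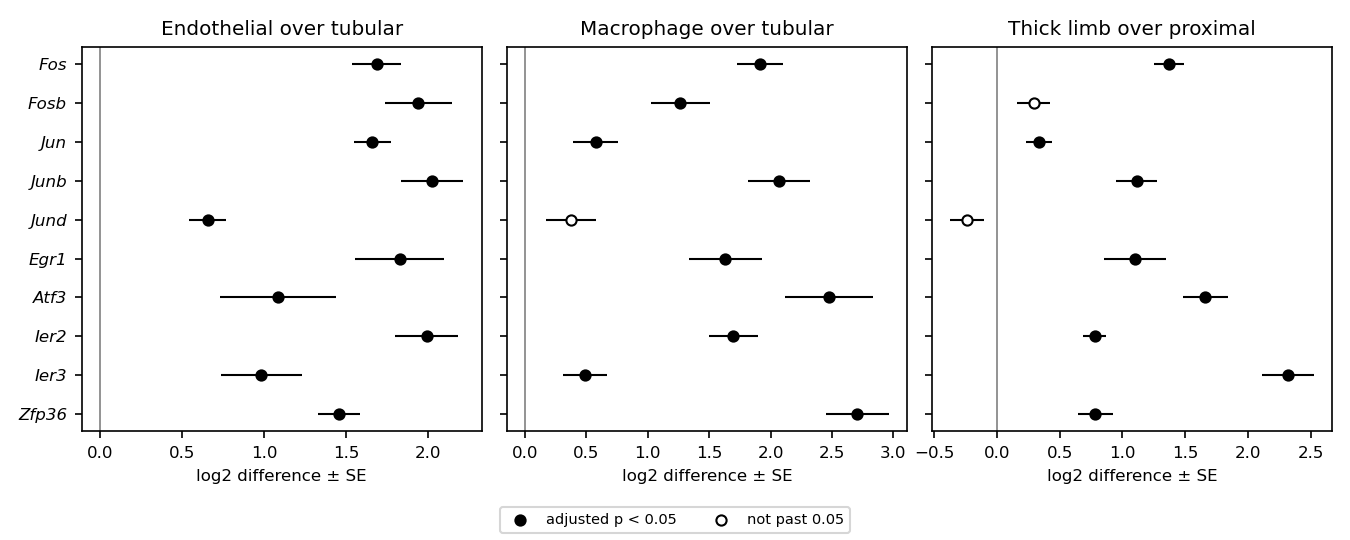
Log2 difference (x axis, ± SE) of each of the 10 genes between 2 classes of the same libraries, with filled points past an adjusted p of 0.05 in edgeR's test over all genes. All 10 genes lie above 0 for endothelial over tubular cells, 9 of 10 are filled for macrophages, and 8 of 10 for thick limb over proximal cells.

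In cells gated as proximal, which reabsorb most of the filtrate, the control had the lowest level of 8 of the 10 genes. The share of all genes that were lowest in the control was not computed, so this count only describes the 10 genes. Fos was at 161 CPM in the control (95% Poisson interval 152 to 169, counting error only), and 339, 495 and 321 on days 1, 2 and 4. The replicated days gave 415 and 527 (day 7), 734 and 756 (day 11), and 325 and 402 (day 14). On this TMM scale the control was the lowest library and both day 11 libraries were the highest. The order of days 7 and 11 depends on the scaling. In tubular cells the log2 change of Fos from day 7 to day 11 was 0.43 with TMM and -0.34 with total counts alone. Neither value passed, and proximal cells were not refitted with total counts.

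Egr1 in proximal cells had another course. It was at 69.3 CPM in the control (63.7 to 75.1), and 311, 464 and 343 on days 1, 2 and 4. The replicated days gave 617 and 584 (day 7), 177 and 125 (day 11), and 89.0 and 155 (day 14). The day 7 libraries were the highest, and the day 11 and day 14 ranges overlapped. Ier3 was likewise low in the control, at 28.3 CPM (24.8 to 32.1). It was at 99.97, 95.5 and 175 on days 1, 2 and 4, then 138 and 144 (day 7), 86.8 and 63.3 (day 11), and 61.2 and 48.9 (day 14). Day 4 was the highest library for Ier3. Junb was at 80.8 CPM in the control, 179, 326 and 321 on days 1, 2 and 4, 301 and 444 (day 7), 285 and 253 (day 11), and 145 and 138 (day 14). Its control and both day 14 libraries were the lowest.

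The AP-1 partner Fosb was at 42.9 CPM in the control, and 98.7, 107 and 75.1 on days 1, 2 and 4. The replicated days gave 105 and 163 (day 7), 195 and 257 (day 11), and 148 and 218 (day 14). Atf3 was at 32.2 CPM in the control (28.5 to 36.3), and 37.9, 78.8 and 86.7 on days 1, 2 and 4, then 71.7 and 130 (day 7), 143 and 138 (day 11), and 74.9 and 96.4 (day 14). A day 11 library was the highest for both genes on the TMM scale. With total counts alone the tubular change from day 7 to day 11 was -0.54 for Fosb and 0.13 for Atf3, and neither passed. The day 11 and day 14 ranges of Fosb overlapped, and both day 11 libraries of Atf3 lay above all others. Ier2, an early response nuclear protein, ran from 97.9 CPM in the control to 403 and 362 on day 11. Zfp36 was at 73.8 CPM in the control, and lay between 205 and 264 in the libraries of days 2, 4, 7 and 11.

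Jun and Jund were the 2 genes for which the control was not lowest. Jun was at 631 CPM in the control and 580 on day 1, and reached 1522 and 1610 (day 11) and 1167 and 1663 (day 14). Jund was at 367 CPM in the control, 527 and 328 on day 7, and 163 in each day 14 library.

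**Figure D3:**
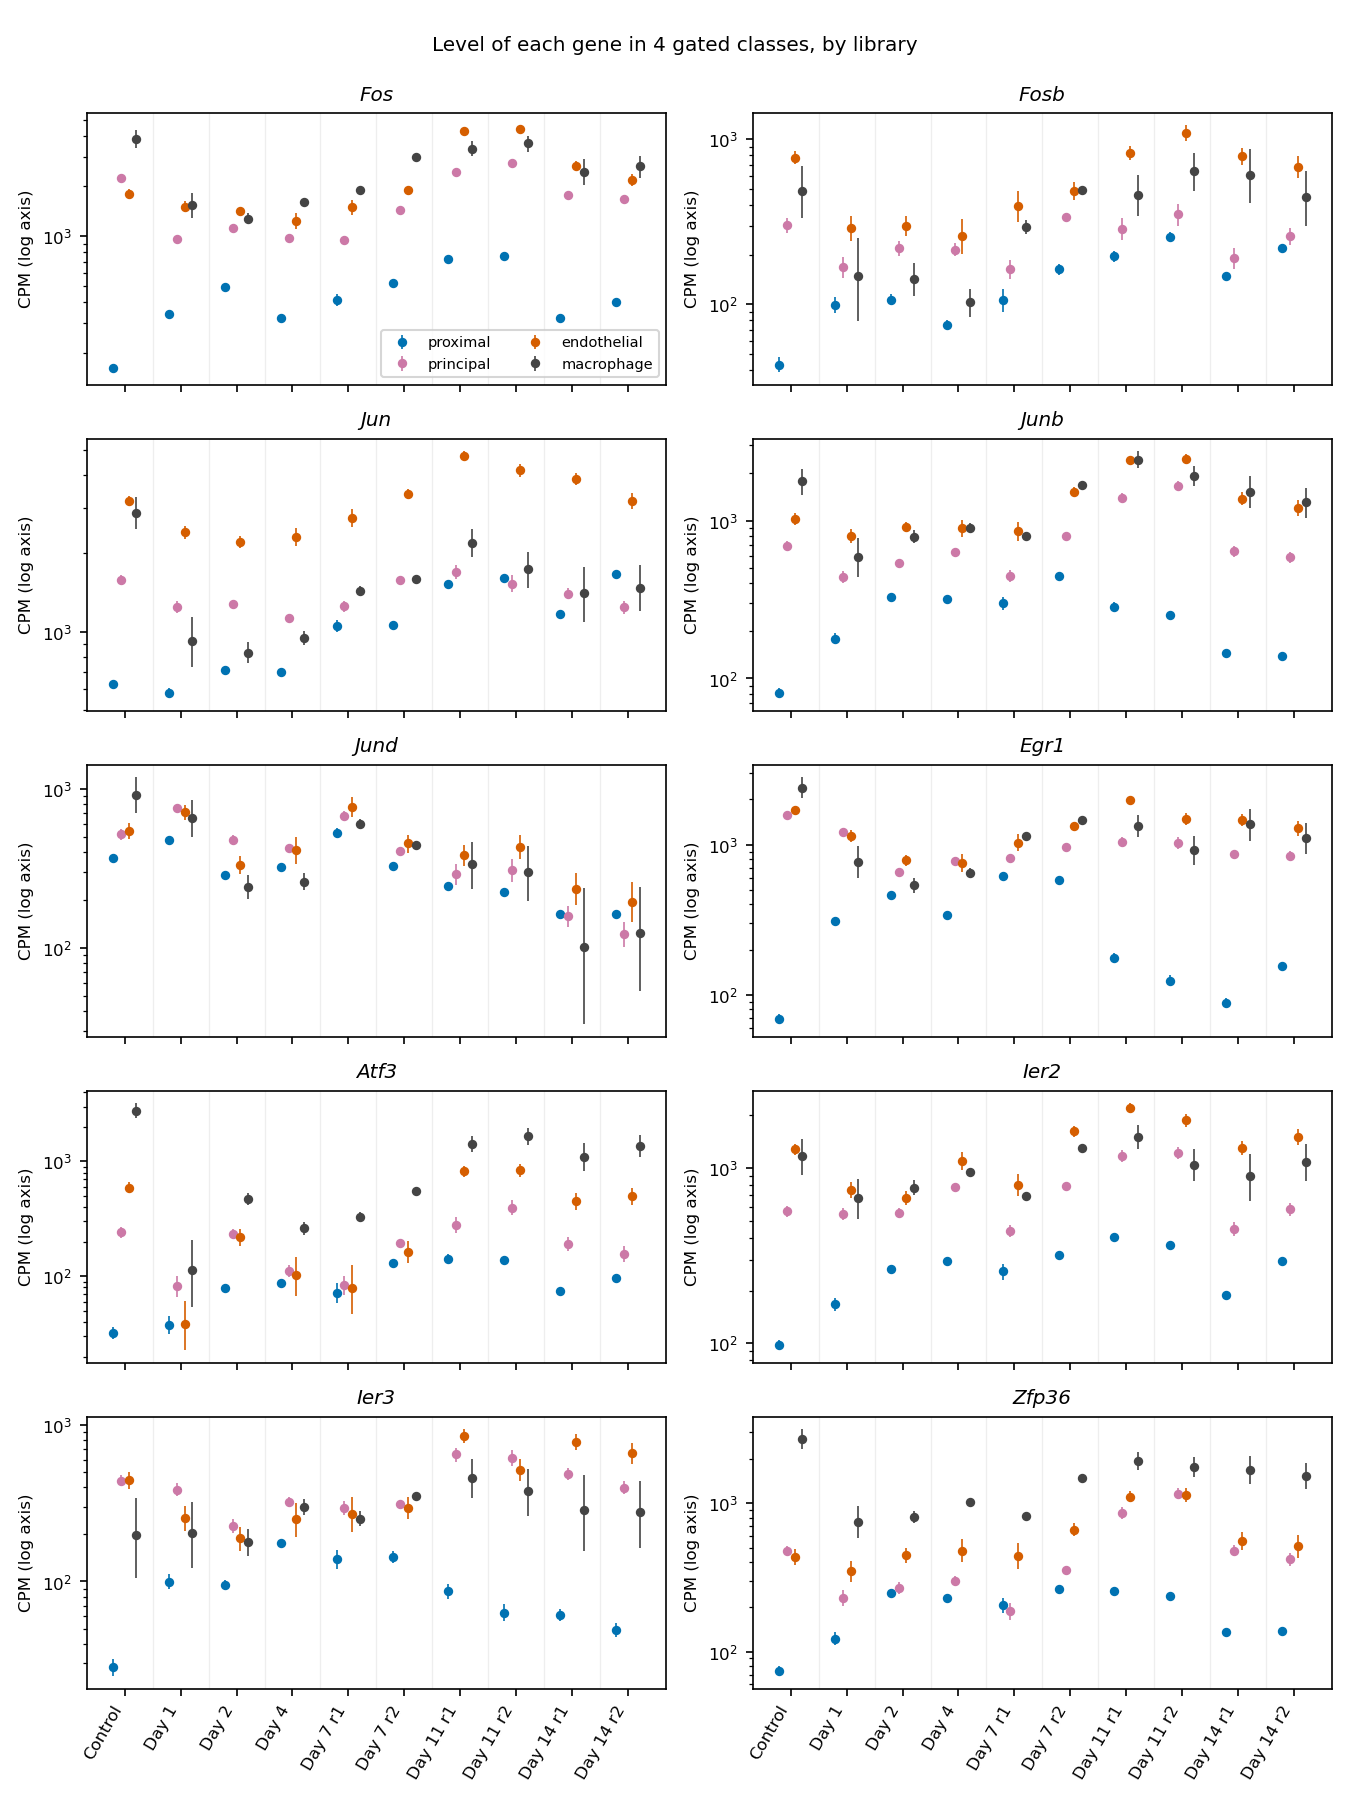
Level of each gene in CPM (log axis) in each library (x axis; r1 and r2 are the 2 libraries of a day) for 4 gated classes; bars are 95% Poisson intervals of the counts. The proximal level of Fos was 161 CPM in the control and 734 and 756 on day 11, while Fos in macrophages was 3851 in the control.

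The test against the control asked which genes differed once spread between libraries was counted. On day 7, 8 of the 10 genes rose in the pooled tubular sum and 0 fell, where 16.5% of 16305 genes rose and 18.3% fell (34.8% in all). Ier2 (log2 change 1.66 ± 0.32 SE, adjusted p = 0.00252, edgeR), Egr1 (1.61 ± 0.25, adjusted p = 0.000705) and Junb (1.55 ± 0.29, adjusted p = 0.00209) changed most. Fosb (1.42 ± 0.35), Zfp36 (1.21 ± 0.24), Atf3 (1.02 ± 0.30), Jun (0.84 ± 0.24) and Fos (0.80 ± 0.25) also rose. Ier3 (0.75 ± 0.29, adjusted p = 0.0659) and Jund (0.59 ± 0.29, adjusted p = 0.14) did not pass. The call of Fos was lost without the second day 7 library (0.53, adjusted p = 0.0584) and without either day 14 library (adjusted p = 0.0574 and 0.0569). It was also lost with a mitochondrial share up to 25% (0.67, adjusted p = 0.0616), and Jun (0.62, adjusted p = 0.0544) and Atf3 (0.73, adjusted p = 0.0534) were lost with every cell of the library summed. Jund passed without the second day 7 library (0.92, adjusted p = 0.005). With total count scaling, which moved the median of all genes by 0.80, Ier3 (1.56, adjusted p = 0.00209) and Jund (1.40, adjusted p = 0.00417) passed. Ier3 also passed with the DESeq2 test (adjusted p = 0.0489), without a filter on low counts (adjusted p = 0.0279) and with the 25% mitochondrial limit (0.84, adjusted p = 0.0432). The median change was 1.11 for the 10 genes and 0.04 for all genes.

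The tubular sum pools segments whose proportions moved with the days. Proximal cells gave 60.3% of its UMIs in the control, 30.3% and 36.8% on day 7, and 76.6% and 77.7% on day 14. The fit was therefore also made on proximal cells alone. There 9 of the 10 genes rose on day 7 and 0 fell (18.4% of 15055 genes rose and 19.4% fell, 37.9% in all). Egr1 changed by 3.21 ± 0.38 (adjusted p = 7.63e-05, edgeR), Ier3 by 2.42 ± 0.28 (adjusted p = 6.87e-05) and Junb by 2.31 ± 0.29 (adjusted p = 0.000111), each more than in the pooled sum. Jund did not pass (0.31 ± 0.27, adjusted p = 0.39). Not every segment rose. In both day 7 libraries Fos, Egr1, Atf3 and Zfp36 were above the control in thick limb and distal convoluted cells. They were below it in principal and intercalated cells. Fos was at 0.42 and 0.64 times its control in principal cells, and 0.72 and 0.85 times in intercalated cells. Junb and Ier2 were above it in intercalated cells. Segments other than proximal were not tested against the control. The heat shock sum and the mitochondrial share were lower on day 7 than in the control, as given above, and their part in the day 7 changes was not tested.

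On day 11, 7 of the 10 genes were above the control in tubular cells and 0 were below it, where 8.3% of genes rose and 9.06% fell (17.4% in all). Atf3 changed most (1.92 ± 0.31, adjusted p = 0.00444, edgeR), then Ier2 (1.81 ± 0.32), Zfp36 (1.76 ± 0.25) and Fosb (1.65 ± 0.35). Junb (1.59 ± 0.29), Fos (1.24 ± 0.25) and Jun (1.12 ± 0.24) also rose. Egr1 (0.48 ± 0.24, adjusted p = 0.179), Ier3 (0.58 ± 0.29, adjusted p = 0.18) and Jund (-0.47 ± 0.28, adjusted p = 0.256) did not pass. The call of Fosb was lost without the second day 11 library (1.48, adjusted p = 0.058). In proximal cells alone 9 of 10 rose and 0 fell (9.39% of genes rose and 11.2% fell, 20.6% in all), with Fosb at 2.39 ± 0.35 and Fos at 2.21 ± 0.27. On this day 4 of the 13 heat shock genes also rose and 2 fell in tubular cells; Hspa1a, an inducible HSP70, rose by 2.5 ± 0.35. Its part in the rise of the 10 genes was not tested.

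On day 14, 2 of the 10 genes were above the control in tubular cells and 0 below, where 3.91% of genes rose and 2.91% fell (6.82% in all). These were Fosb (1.32 ± 0.35, adjusted p = 0.0486, edgeR) and Jun (0.93 ± 0.24, adjusted p = 0.0435). Jund was at -1.02 ± 0.27 (adjusted p = 0.0508) and Fos at 0.25 ± 0.24 (adjusted p = 0.554). The count rested on single libraries. Fosb and Jun were both lost without the first day 14 library (adjusted p = 0.0686 and 0.084) and without the second (adjusted p = 0.203 and 0.273), and no other gene was called. Without the day 1 library both rises were lost and Jund fell (-1.09, adjusted p = 0.0412). Without either day 11 library 1 gene, Jun, rose. Without either day 7 library 5 rose and 1, Jund, fell. In proximal cells alone 7 genes passed, of which 6 rose (3.63% of genes rose and 4.54% fell, 8.17% in all). These 6 were Fosb (2.07 ± 0.34), Atf3 (1.39 ± 0.33), Ier2 (1.29 ± 0.30), Fos (1.16 ± 0.25), Jun (1.15 ± 0.26) and Zfp36 (0.87 ± 0.24), and Jund fell (-1.19 ± 0.26, adjusted p = 0.0198). The proximal fit was not repeated without single libraries or with another scaling. Its day 14 calls are therefore not known to be firmer than those of the pooled sum. The 3 comparisons share the control library.

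**Figure D4:**
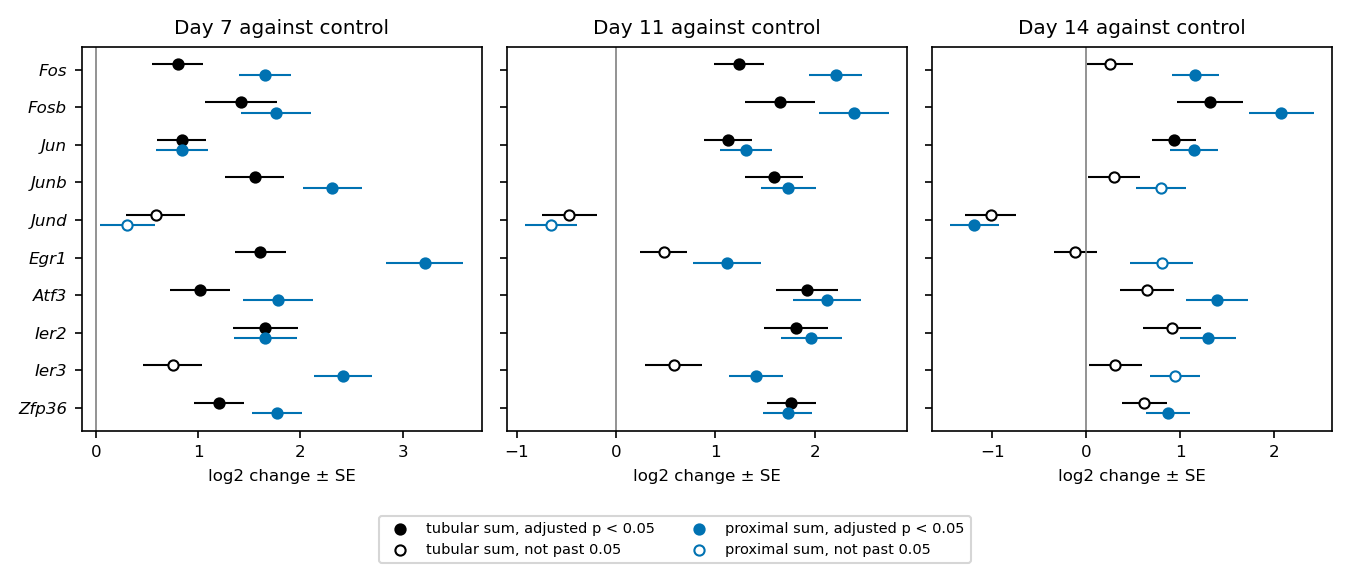
Log2 change from the control (x axis, ± SE) of each of the 10 genes on days 7, 11 and 14, in the tubular sum (black) and in proximal cells alone (blue), with filled points past an adjusted p of 0.05 in edgeR. Egr1 in proximal cells lies at 3.21 on day 7 and 0.80 on day 14, and Jund lies below 0 on days 11 and 14.

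From day 7 to day 11, 2 of the 10 genes rose and 2 fell in tubular cells, where 22.4% of genes rose and 20.4% fell (42.8% in all), so the share of the 10 genes called was near that of all genes. Atf3 rose (0.91 ± 0.23, adjusted p = 0.00969, edgeR) and Zfp36 rose (0.56 ± 0.19, adjusted p = 0.0341), while Egr1 (-1.12 ± 0.19, adjusted p = 0.00091) and Jund (-1.06 ± 0.23, adjusted p = 0.00419) fell. With scaling by total counts alone, which moved the median of all genes by -0.77, the split was 0 higher and 6 lower; neither Atf3 (0.13) nor Zfp36 (-0.22) was called. Of the 13 heat shock genes 8 rose and 1 fell over the same days (median log2 change 1.15), and the mitochondrial share was higher on day 11; their part was not tested. In proximal cells alone Fos was the 1 gene that rose (0.56 ± 0.19, adjusted p = 0.0423; 19.2% of genes rose and 19.0% fell, 38.2% in all), and Egr1 (-2.09 ± 0.27), Ier3 (-1.01 ± 0.21) and Jund (-0.96 ± 0.22) fell. The call of Zfp36 was lost without the first day 7 library (0.35, adjusted p = 0.108) without either day 11 library (adjusted p = 0.107 and 0.101) and without either day 14 library (adjusted p = 0.0697 and 0.0693). Without the second day 7 library Fos (0.70, adjusted p = 0.0099) and Fosb (0.73, adjusted p = 0.0282) passed as well.

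From day 7 to day 14, 6 of the 10 genes fell in tubular cells and 0 rose, where 24.1% of genes rose and 21.4% fell (45.4% in all). Egr1 (-1.72 ± 0.19, adjusted p = 4.82e-05, edgeR), Jund (-1.61 ± 0.24, adjusted p = 0.000285) and Junb (-1.26 ± 0.22, adjusted p = 0.000991) fell most, and each was called under all 23 alternatives tried. Ier2 (-0.74 ± 0.24), Zfp36 (-0.59 ± 0.19) and Fos (-0.55 ± 0.20) also fell. These 3 calls were lost without the second day 7 library, which left 3 genes. Fos and Zfp36 were also lost without either day 14 library, and Ier2 without the first. With a mitochondrial share up to 25%, Fos (-0.43, adjusted p = 0.101), Ier2 (-0.59, adjusted p = 0.0727) and Zfp36 (-0.42, adjusted p = 0.0939) were lost as well. Jun (0.09 ± 0.19, but -0.77 with total count scaling, which moved the median of all genes by -0.86) and Fosb (-0.10 ± 0.27) did not pass. In proximal cells alone 5 genes fell and 0 rose (20.1% of genes rose and 20.5% fell, 40.6% in all): Egr1 (-2.41 ± 0.27), Junb (-1.52 ± 0.21), Jund (-1.5 ± 0.22), Ier3 (-1.48 ± 0.21) and Zfp36 (-0.90 ± 0.19).

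As in proximal cells, the control was the lowest library in thick limb cells for each gene but Fos and Jund. In distal convoluted cells it was lowest for each gene but Fos, Jund and Ier3. Macrophages did not share this low control level: 6 of the 10 genes (Fos, Jun, Jund, Egr1, Atf3 and Zfp36) were below the control in all 9 other libraries. Ier3 was below it in 1 of 9. In endothelial cells 4 genes (Fosb, Egr1, Atf3 and Ier3) were below the control in all 5 libraries of days 1 to 7, and Zfp36 in 1 of 5. The shares of all genes below or above the control in these ways were not computed for any class, so these counts only describe the 10 genes. Atf3 in macrophages was at 2766 CPM in the control (95% Poisson interval 2378 to 3200, 45 cells), 114 on day 1 (54.5 to 209), and 473 and 261 on days 2 and 4. The replicated days gave 330 and 553 (day 7), 1411 and 1651 (day 11), and 1098 and 1370 (day 14). In endothelial cells Atf3 was at 589 CPM in the control, 38.4, 218 and 101.98 on days 1, 2 and 4, then 78.9 and 164 (day 7), 817 and 835 (day 11), and 449 and 497 (day 14). In both classes the libraries of days 1 to 7 were below the control and those of days 11 and 14 were above those of day 7. Fos in endothelial cells was at 1798 CPM in the control, 1494 and 1894 (day 7), 4308 and 4401 (day 11), and 2660 and 2176 (day 14). The endothelial heat shock sum was 11304 CPM in the control, and 5685, 8349 and 5805 on days 1, 2 and 4, then 5403 and 5745 (day 7), 12260 and 12221 (day 11), and 5223 and 4973 (day 14). It was thus high in the control and on day 11, where Atf3 was also high. It was lowest on day 14, where Atf3 was at 449 and 497 CPM. In macrophages the heat shock sum was 5578 CPM in the control, and 8325, 11574 and 6468 on days 1, 2 and 4. The replicated days gave 5906 and 5064 (day 7), 7933 and 7922 (day 11), and 3070 and 4033 (day 14). The part of these sums in the course of Atf3 was not tested.

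In principal cells, which reabsorb sodium and water in the collecting duct, Fos was at 2242 CPM in the control against 945 and 1435 on day 7, and Egr1 was at 1573 against 816 and 960. In the second day 7 library Junb (1.15 times), Ier2 (1.40 times) and Fosb (1.13 times) were above their control in these cells. The ratio of principal to proximal cells was widest in the control for each gene but Jund, for which it was widest on day 2 (1.67, against 1.41 in the control). For Fos it was 13.96 in the control, 2.27 and 2.72 (day 7), and 5.48 and 4.14 (day 14). For Egr1 it was 22.7 in the control, 1.32 and 1.64 (day 7), and 9.68 and 5.45 (day 14). The heat shock sum in the control was 6186 CPM in principal and 20076 in proximal cells, and its part in these ratios was not tested.

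In endothelial cells 3 of the 10 genes changed from day 7 to day 14, where 2.07% of 8036 genes rose and 1.9% fell (3.97% in all). Atf3 rose by 1.96 ± 0.28 (adjusted p = 1.35e-05, edgeR) and Ier3 by 1.41 ± 0.26 (adjusted p = 0.000501), and Jund fell (-1.43 ± 0.28, adjusted p = 0.00118). The remaining 7 genes did not pass, with Fosb nearest at 0.80 ± 0.24 (adjusted p = 0.0551). The same test by edgeR called 0 of the 13 heat shock genes, with Hspa1a nearest (0.92 ± 0.29, adjusted p = 0.0758).

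In macrophages 2 of the 10 genes rose from day 7 to day 11, where 4.08% of 3704 genes rose and 1.27% fell (5.35% in all). These were Atf3 (2.01 ± 0.28, adjusted p = 5.16e-05, edgeR) and Junb (1.03 ± 0.29, adjusted p = 0.0375). The call of Junb was lost without the first day 7 library (0.62, adjusted p = 0.375), without either day 11 library (adjusted p = 0.202 and 0.0935) and without either day 14 library (adjusted p = 0.0579 and 0.0611), and 5 genes passed without the second day 7 library. Of 10 heat shock genes tested, 5 rose as well, and their part was not tested. Macrophages numbered 913 and 1395 on day 7 and 93 and 61 on day 11.

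The change from day 7 to day 14 was compared between endothelial and tubular cells by an interaction term. For 8 of the 10 genes it was higher in endothelial cells, where 4.49% of 15369 genes were higher and 4.93% lower (9.42% in all). Atf3 differed by 2.44 ± 0.27 (adjusted p = 5.31e-17, edgeR), Egr1 by 2.07 ± 0.20, Ier3 by 1.92 ± 0.24 and Junb by 1.502 ± 0.20. Jun (0.24 ± 0.17, adjusted p = 0.567) and Jund (0.22 ± 0.25, adjusted p = 0.785) did not pass. In this fit the variance of each gene was set wholly by the trend over all genes, so the small p-values rest on that shared spread. The tubular side is the pooled sum. Proximal cells gave 30.3% and 36.8% of its UMIs on day 7 and 76.6% and 77.7% on day 14. Principal cells gave 27.0% and 28.4%, then 5.89% and 6.40%. The interaction was not fitted on proximal cells alone, so segment proportions and change within cells cannot be told apart here. The call of Fosb (0.94 ± 0.24) was lost without the second day 7 library (0.66, adjusted p = 0.0957) or the first day 14 library (0.65, adjusted p = 0.26), with the DESeq2 test (1.07, adjusted p = 0.0581) and with the stricter gate (0.64, adjusted p = 0.206). That of Zfp36 (0.66 ± 0.23, adjusted p = 0.0477) was lost under 9 of 19 alternatives, among them those without the control, the day 2 library, either day 11 library or either day 14 library (adjusted p = 0.052 to 0.299).

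Jund stood apart from the other 9 genes. JUND is the JUN family member known for its steadier expression in resting cells. In tubular cells Jund was at 299.6 CPM in the control, 561, 318 and 326 on days 1, 2 and 4, then 573 and 335 (day 7), 213 and 212 (day 11), and 147 and 140 (day 14). The day 1 library and the first day 7 library were the highest, and both day 14 libraries were the lowest. Over 80 sums of a class in a library, its Pearson r with the other genes ran from -0.14 (Atf3) to 0.41 (Egr1). Junb and Ier2 reached 0.93 and Fosb and Jun 0.90. These sums share libraries and depth, so the values are descriptions.

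Single cells showed how widely the genes were detected. Each cell was thinned to 1000 UMIs, and cells with fewer were left out. The share of proximal cells with at least 3 of the 10 genes was 6.20% in the control (exact 95% binomial interval 5.42% to 7.06%, 3450 cells). It was 24.5%, 25.3% and 30.9% on days 1, 2 and 4, then 44.2% and 41.5% (day 7), 21.5% and 19.8% (day 11), and 13.4% and 16.5% (day 14). The control was the lowest library and the day 7 libraries the highest. Thinning counts all UMIs, mitochondrial ones included, so these shares follow total count scaling rather than TMM. With TMM the proximal sum of the 10 genes was 1583 CPM in the control and 3690 and 3964 on day 7. It was 4044 and 4023 on day 11, so day 7 was not the highest on that scale. Shares for other genes were not computed. Proximal cells with none of the genes made up 55.4% in the control and 12.1% and 15.7% on day 7. The tenth of proximal cells with most UMIs of these genes held 49.0% of them in the control and 29.1% and 34.7% on day 7. The mean was 0.948 UMIs of these genes per thinned cell in the control and 3.798 and 3.74 on day 7, and this share falls by counting alone as the mean rises.

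In T and NK cells of day 7, with median depths of 935 and 1214 UMIs against 1694 and 2574 in proximal cells, 23.1% and 17.1% of thinned cells had at least 3 of the genes. The proximal shares of the same day 7 libraries were above this level. Those of day 11 lay inside its range and those of day 14 and the control below it, but these libraries had too few T and NK cells for a level of their own. The T and NK share is a comparison between classes and no floor, since other classes were lower for some of the genes. Endothelial cells had at least 3 of the genes in 69.6% of cells in the control, and 73.3%, 60.5% and 73.7% on days 1, 2 and 4. The replicated days gave 89.1% and 87.6% (day 7), 90.2% and 91.9% (day 11), and 81.8% and 75.0% (day 14), so day 2 was the lowest and day 11 the highest. Unthinned, Fos was detected in 18.2% of proximal cells of the control and in 42.0% and 50.4% on day 7. Thinned, it was detected in 7.59%, 27.6% and 30.3%.

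**Figure D5:**
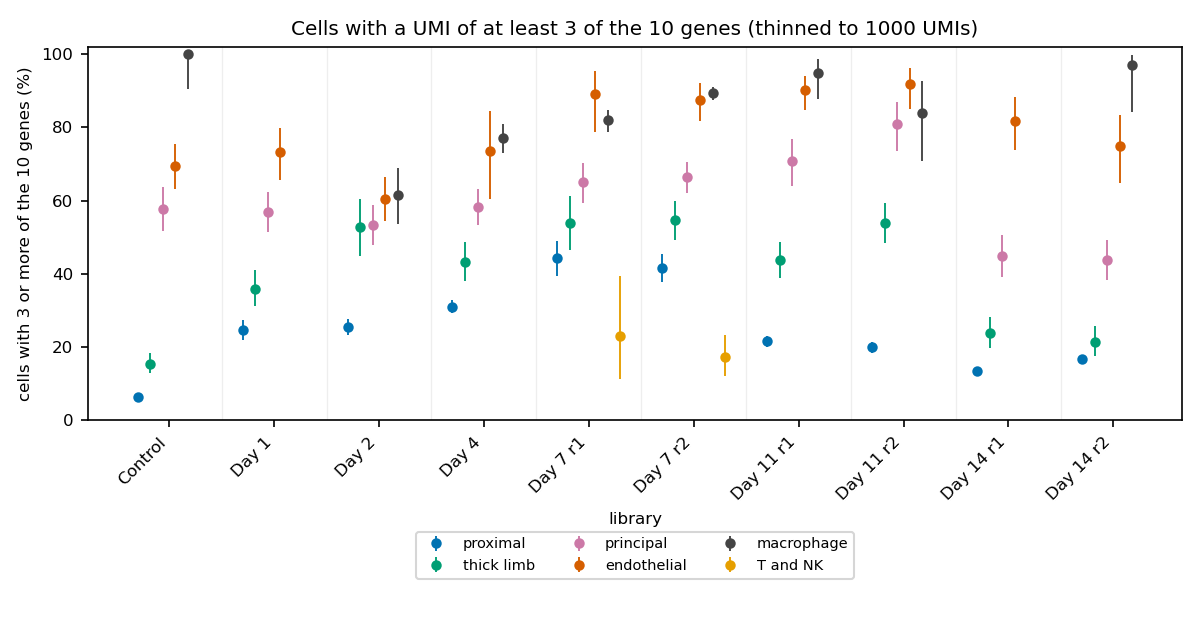
Share of cells (y axis, %) with a UMI of at least 3 of the 10 genes after thinning to 1000 UMIs, by library and gated class, with exact 95% binomial intervals. Proximal cells run from 6.20% in the control to 44.2% on day 7, and T and NK cells of day 7 lie at 23.1% and 17.1%.

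Other genes of the pathway were read from fixed lists. Of 21 other immediate early transcription factors tested in tubular cells, 12 rose and 1 fell on day 7, 10 rose and 1 fell on day 11, and 3 rose and 1 fell on day 14, each against the control. Of all genes tested, 16.5% rose and 18.3% fell (day 7), 8.3% rose and 9.06% fell (day 11), and 3.91% rose and 2.91% fell (day 14). Klf2, a flow-responsive factor, changed by 3.62 ± 0.40 on day 7, and Maff, a small MAF protein, by 3.11 ± 0.30. Klf9 fell (-1.30 ± 0.22). Of 28 feedback regulators and other early response genes, 14 rose and 5 fell on day 7, 14 rose and 0 fell on day 11, and 3 rose and 1 fell on day 14. Socs3, which dampens cytokine signalling, rose by 2.94 ± 0.26 and Nfkbiz, an atypical IκB protein, by 3.03 ± 0.29 on day 7. Errfi1, an inhibitor of the EGF receptor, fell (-1.76 ± 0.20). Of the 15 upstream factors and kinases, 1 rose (Elk3, an SRF partner, 1.96 ± 0.35) and 1 fell (Mapk14, -0.83 ± 0.26) on day 7, a smaller share than of all genes; 3 fell on day 11, and none was called on day 14, with Creb1 nearest (-0.82 ± 0.22, adjusted p = 0.0529). Of the 13 heat shock genes, 1 rose on day 7 (Hspb1, 4.35 ± 0.37) and 6 fell, among them Hspd1 (-2.60 ± 0.22) and Hsph1 (-2.54 ± 0.27). On day 14, 4 fell and 0 rose.

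The genes whose levels most resembled Fos over the 80 sums were Btg2 (Pearson r 0.88), Nr4a1 (0.79) and Ppp1r15a (0.78). For Atf3 they were Btg2 (0.72), Hspa1a (0.69) and Ppp1r15a (0.68). For Ier3 they were Tubb2a (0.77), Cd9 (0.68) and Pkm (0.67). Counting is not stated to use strand, and on the opposite strand Jun overlaps Junos, Junb overlaps Prdx2, Jund overlaps Gm11175, Atf3 overlaps Gm24748 and Zfp36 overlaps Gm44710 (GENCODE M21), so reads of these pairs cannot be told apart.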

How the data were processed

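Each deposited table holds the authors' counts of a library, with genes by symbol and cells by barcode. The whole numbers were read as UMIs (unique molecular identifiers), a unit not given in the labels. The submitters' processing notes name Bowtie2 2.2.7 and mm10 (GRCm38). The annotation is not given in the sources used here. Of 64803 barcodes, 52797 were kept, with a minimum of 500 UMIs and 500 genes and a mitochondrial share up to 50%. In the deposited day 11 tables the lowest number of genes in a barcode was 300, against 500 in all others. Those tables held 10800 and 10711 barcodes, of which 5409 and 5283 were kept. The top 5% of Scrublet scores per library (scanpy 1.11.5) were removed as doublets, because the automatic threshold marked at most 0.111%. A cell took the class with most detected markers, at least 2 and more than any other class. Counts were summed per library and class of at least 30 cells and tested with edgeR 4.0.16 (filterByExpr, TMM, quasi-likelihood F test, Benjamini-Hochberg over all genes, threshold 0.05), with 1 term per group or, between classes, the library as a block. Tests were checked on simulated data, in which spread came from the trend over all genes or was a fixed value. That check does not cover spread particular to a gene or the comparisons with the single control. The 10 genes, all of which are named, and the lists were chosen with earlier results of these data known. From each list the text names up to 2 called genes per direction with the largest change and an average log2 CPM of at least 3. Intervals cover counting error only.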

Additional observations from a re-analysis of the deposited data

Results flagged for a closer look

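The day 7 to day 14 change differed between endothelial and tubular cells for 8 of the 10 genes by the interaction test, where 9.42% of 15369 genes differed and 4.49% were higher in endothelial cells. The log2 differences were 1.17 for Fos, 0.94 for Fosb, 1.502 for Junb, 2.07 for Egr1, 2.44 for Atf3, 1.13 for Ier2, 1.92 for Ier3 and 0.66 for Zfp36. The call of Fosb was lost in 4 of 19 alternatives and that of Zfp36 in 9 of 19. The tubular side pools segments whose proportions differed between these days, and the interaction was not fitted on proximal cells alone. Segment proportions and change within cells therefore cannot be told apart here. No group held 4 or more libraries, so no library was examined for lying far from the others of its group.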

How the results depend on the processing

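Counts of genes called stayed within 1.5 times under every alternative for 8 of the 11 comparisons; the exceptions were tubular cells on day 14 against the control or day 7, and macrophages on day 11 against day 7. For day 14 against the control the count of 2, both rises, became 1 with DESeq2 size factors or every cell of the library (both rises lost, Jund lower), 1 with total count scaling (a rise), 4 without a filter on low counts, 6 with only the 2 groups fitted and 7 in proximal cells alone (1 of them, Jund, lower in each); without single libraries it ran from 0 to 6. For day 14 against day 7 the count of 6 became 10 with total count scaling and 3 with a mitochondrial share up to 25%, and ran from 3 to 7 without single libraries. For macrophages the count of 2 became 1 with total count scaling, without a filter or with the replicate block, and ran from 1 to 5. Total count scaling moved the median of all genes by up to -0.86 (day 14 against day 7), and turned Fos (-0.34), Fosb (-0.54), Jun (-0.49), Junb (-0.73), Ier2 (-0.62) and Zfp36 (-0.22) in tubular cells from day 7 to 11, Jun (-0.77) to day 14 and Zfp36 in endothelial cells (-0.149). Without a filter Junb (-0.035, tubular day 11 against day 7) and Zfp36 (-0.0031, endothelial) turned. The stricter gate turned Zfp36 (-0.146, endothelial), Egr1 (0.098, macrophages) and Jund (-0.051, macrophage against tubular). The 25% limit turned Fosb (0.13, day 14 against day 7), keeping doublets Egr1 (0.019, macrophages), and fitting 2 groups Zfp36 (-0.0073, endothelial). In proximal cells Egr1 (0.80, day 14 against control), Junb (-0.57) and Zfp36 (-0.045, day 11 against day 7) and Fosb (0.31, day 14 against day 7) turned, and in all cells Ier3 (0.029, day 11 against day 7). Of the turned results only Zfp36 in tubular cells had been called before, and of the turned values only Jun, Junb and Ier2 under total count scaling passed the threshold. Without single libraries, values crossed 0 for Fosb (-0.13 to 0.73), Junb (-0.25 to 0.41), Ier2 (-0.13 to 0.50) and Ier3 (-0.37 to 0.0070) on day 11 against day 7, Egr1 (-0.28 to 0.030) and Ier3 (-0.055 to 0.60) on day 14 against control, Fosb (-0.47 to 0.40), Atf3 (-0.71 to 0.077) and Jun (-0.11 to 0.26) on day 14 against day 7, Junb (-0.13 to 0.59), Ier2 (-0.091 to 0.81) and Zfp36 (-0.19 to 0.28) in endothelial cells, Egr1 (-0.25 to 0.19) in macrophages and Jun (-0.074 to 0.54) in the interaction. The cause of these changes was not tested. Same-numbered libraries did not deviate together (r 0.03, -0.04 and -0.04), so the replicate block is no pairing; with it the counts were 4, 7, 3 and 1 for tubular day 11 and day 14, endothelial and macrophage comparisons with day 7, and the single control could not be blocked. Leaving out mitochondrial genes was chosen after seeing the data.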
